A study of Bos taurus with 16 samples.

Results

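The transcripts of whole blood from dairy cows given a probiotic for 60 days were put in order of their signal on microarrays. RNA was hybridised to 4 single-colour Agilent arrays of 60-base probes, with Cy3 as the dye. A probe was kept where the scanner software called its spot, or all its spots, well above background on all 4 arrays. Kept probes were ordered by their mean log2 background-subtracted signal in scanner units. A gene took the place of its brightest kept probe. In this way 6484 of the 16956 genes with a named probe on the array were ranked, which is 38.2%. Rank 1 was the brightest gene, and the percentile ran from 100 for the brightest to 0 for the dimmest ranked gene. The order is one of signal. Probes differ in how strongly they bind, and a rank is not a number of transcripts.

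The cows were lactating Holstein Friesian females, and 10 were enrolled, of which 5 received a commercial oral pack (Fastrack Microbial Pack) and 5 received water. The pack held dried ferments of Bacillus subtilis, Aspergillus oryzae, Lactobacillus acidophilus and Enterococcus faecium, with a Saccharomyces cerevisiae yeast culture, chicory root, calcium carbonate and rice hulls. The series has 16 arrays in 4 groups: blood before treatment, blood after 60 days from the water arm, and blood after 60 days from the probiotic arm, either plain or with 100 ng/ml of bacterial lipopolysaccharide. The 4 arrays of plain probiotic blood are described here. Their blood was drawn into tubes with an anticoagulant and kept for 30 min at 37 °C in 5% CO2, the extraction kit lysed red and white cells differentially, and the labelling input was 0.5 µg (integrity score over 7). Extracts of the group's animals was pooled in equal amounts. The 4 arrays are repeat hybridisations of 1 pool on 1 slide, so the SD (n = 4 throughout) measures technical spread and carries nothing on differences between cows.

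Whole blood holds neutrophils, monocytes, T, B and natural killer cells, eosinophils and basophils, together with red cells and platelets, which have lost their nuclei and keep a small store of messenger RNA. Some transcripts are plentiful in nearly every cell: those for ribosomal proteins, elongation factors and the respiratory chain, and those encoded by the mitochondrial genome. Nucleated blood cells also make large amounts of MHC class I molecules, which show peptides to killer T cells, and of the actin-binding proteins that let them move. Messenger RNA for cytokines and for transcription factors is usually kept low and short-lived. In bulk RNA, fewer cells of a type and less RNA per cell cannot be told apart.

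Whether a probe was kept went with where it lay on the array. On each array the spots well above background lay on a rim along the edges, and the interior was largely dark. A spot was assigned to the rim where at least 40% of the other spots within 7 rows and 4 columns of it were called well above background on every array, a class drawn up after the pattern was seen. By that measure 31.6% of the probes, 13785 of 43653, lay on the rim. Of the rim probes 7743 (56.2%) were kept, and of the 29868 interior probes 2701 (9.04%) were kept, against 23.9% of all probes. The class and the keeping rest on the same calls of the same arrays, so these shares describe the class and do not test it. A symbol was attached to 80.1% of rim and 79.8% of interior probes.

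**Figure D1:**
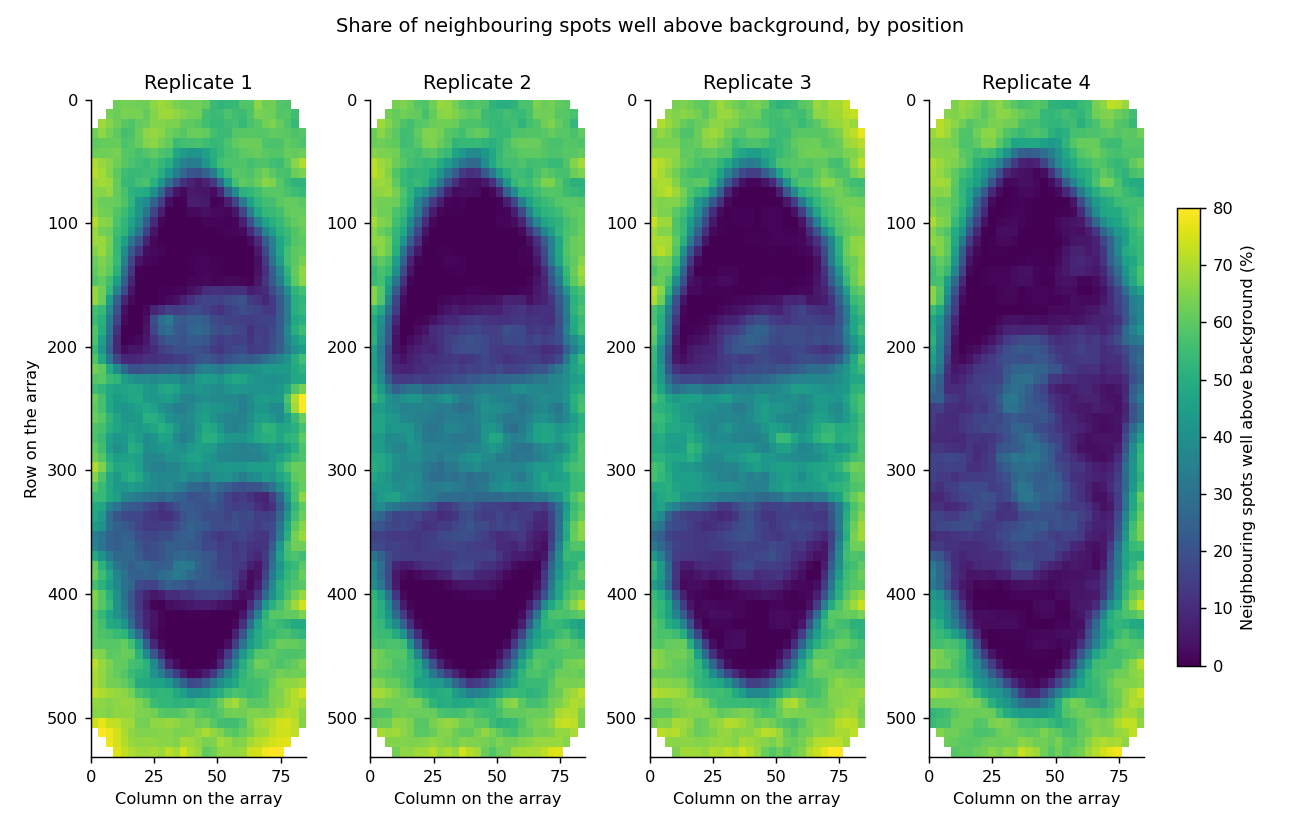
Share of neighbouring spots called well above background (colour, in %) by row and column on each of the 4 arrays of probiotic blood. A bright rim surrounds a dark oval on every array, and replicates 1 to 3 have a brighter band across the middle rows that replicate 4 lacks.

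Identical probes printed in several places show the size of this difference. The probe for RPL36AL, a protein of the large ribosomal subunit, is shown because it was printed at 4 places, and its first 30 bases, from the 5′ end, are given in lower case.
RPL36AL: ccaagtgatccagttctaagctttgggatt
Its 4 spots read 19662, 22.5, 31.5 and 15823 scanner units on replicate 1, at rows 49, 206, 348 and 497. On replicate 4 they read 18953, 46.7, 18.7 and 13702. The first and last spots lay on the rim and the others in the interior. A probe counted as rim only where all its spots lay there, and was kept only where all were called. By that rule this probe was not kept, and RPL36AL did not enter the ranking. Only 3 probes printed 4 times were kept. Of 50 probes printed 4 times, 39 had spots in both places. Of their rim spots 43 of 61 (70.5%) were called on all 4 arrays, and of their interior spots 14 of 95 (14.7%). The mean log2 signal over a probe's rim spots was above that over its interior spots in 35 of the 39 probes, below it in 3 and equal in 1, with a median difference of 4.24. Single spots could go the other way: 1 interior spot of IL11RA, a cytokine receptor chain, read 345 scanner units on replicate 1 against 238 for its rim spot.

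The labelled control RNA added to every array (E1A spike-ins) showed it for its bright probes too. Over the 10 rim spots of the probe n9, the median was 39932, 39474, 40459 and 40447 scanner units on replicates 1 to 4. Over its 22 interior spots the median was 1065, 460, 447 and 39.7. The rim values thus lay within a few percent of each other, and the interior values were lower on every array and lowest on replicate 4. The spike-in probe r60_1 read 144054 on the rim and 97.0 in the interior of replicate 1. Negative control spots read -17.6 on the rim and -13.8 in the interior of that array, so the empty signal was no lower in the interior. Genes with no rim probe number 8434, and for these the absence of a rank says nothing about the blood.

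**Figure D2:**
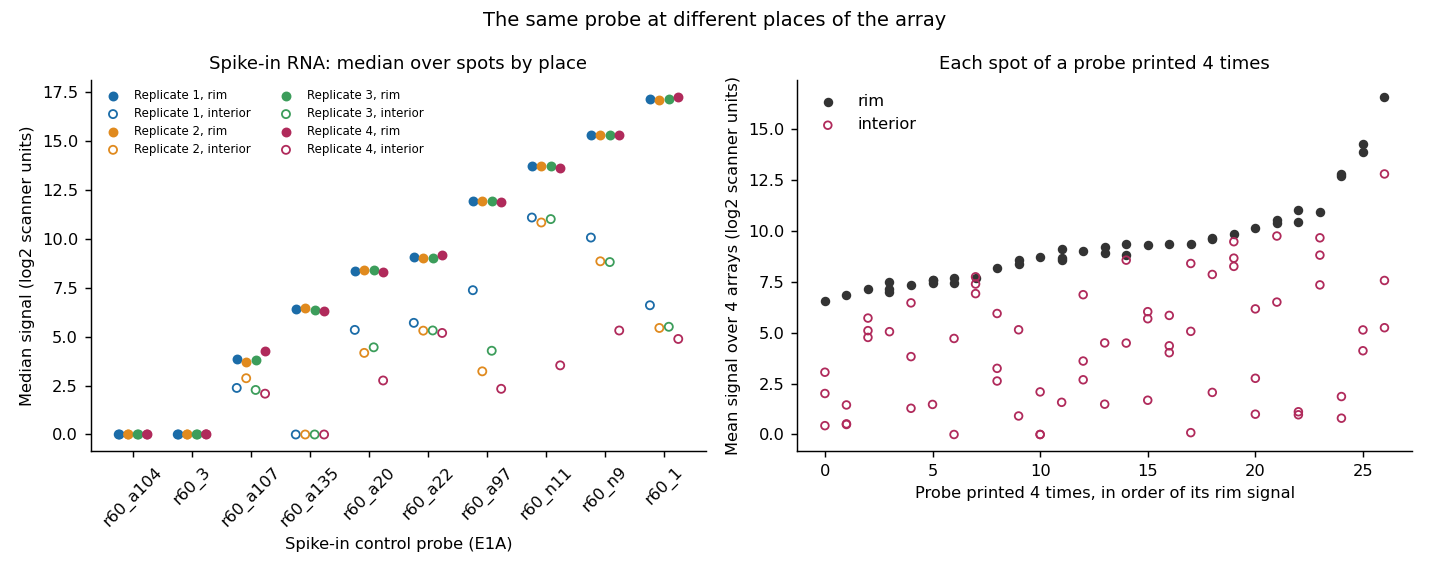
Left, median log2 signal of each E1A spike-in probe over its rim spots (filled) and interior spots (open) on the 4 arrays, with medians under 1 scanner unit drawn at 0. Right, mean log2 signal over the 4 arrays of every spot of the 27 probes printed 4 times whose rim spots were all called, a choice made on those rim spots; most interior spots lie below the rim spots of their probe, and a few lie near or above them.

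For this reason a ranking that uses rim probes alone is given beside the main one. Of 8522 genes with a rim probe, 5129 were ranked by it, which is 60.2%. In the ranking by all kept probes, 4888 genes took their place from a rim probe and 1596 from an interior probe. The rim share was 84.7% among the brightest 10% of genes and 67.2% in the eighth 10% from the top.

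On the arrays as wholes, 37.1, 32.6, 35.4 and 26.4% of spots were well above background on replicates 1 to 4. On the rim the shares were 61.5, 59.5, 62.4 and 57.8%, and in the interior 25.8, 20.2, 23.0 and 11.9%. Replicate 4 was therefore the dimmest array, and its share fell mainly away from the rim. A rim spot needed bright surroundings on every array, so areas dark on replicate 4 alone (9.65% of spots) counted as interior. That split by place thus follows in part from how the rim was defined. The lowest signal called well above background was at most 50.6 scanner units on each array, no spot was saturated, and the number of arrays limits the precision.

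Many of the brightest genes belonged to antigen presentation, protein synthesis, respiration and the cytoskeleton, and 32 of the 100 brightest belonged to none of the lists described below. The brightest gene was BOLA, the symbol for bovine MHC class I heavy chains, at 18.31, 18.30, 18.28 and 17.99 (mean 18.22 ± 0.155, SD). The 25 brightest genes had means from 17.05 to 18.22. They included 13 ribosomal protein genes led by RPS3 (17.92 ± 0.0680), RPS19 (17.72 ± 0.0278) and RPL13A (17.61 ± 0.0800). TMSB10, a thymosin that binds actin monomers, stood at rank 3 (17.91 ± 0.0606), and ACTG1, cytoplasmic gamma actin, at rank 13 (17.39 ± 0.0387). TPT1, an abundant growth-linked protein, stood at rank 4, at 17.87, 17.80, 17.77 and 17.63. IFITM2, an interferon-induced membrane protein that blocks virus entry, stood at rank 17 (17.24 ± 0.0792). BOLA-NC1, a non-classical class I molecule (17.58 ± 0.0672), and JSP.1, another class I heavy chain (17.38 ± 0.243), stood at ranks 8 and 15.

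Genes outside these programmes also stood high. CAMK1G, a calmodulin-dependent kinase, stood at rank 44 (16.55 ± 0.120), IGLL1, an immunoglobulin light chain-like gene, at rank 53 (16.31 ± 0.440), and AGTR1, an angiotensin receptor, at rank 68 (16.05 ± 0.294), each read on the rim. AVP, the vasopressin precursor, at rank 86, and FGF2, a fibroblast growth factor, at rank 96, were read in the interior. What these probes bind was not tested.

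Class I genes are close copies of each other, and a probe for one may bind transcripts of others, so BOLA, BOLA-NC1 and JSP.1 are best read as the family. BOLA alone had 13 kept probes. Ribosomal protein genes have many processed copies in mammalian genomes, and the same caution holds for them.

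**Figure D3:**
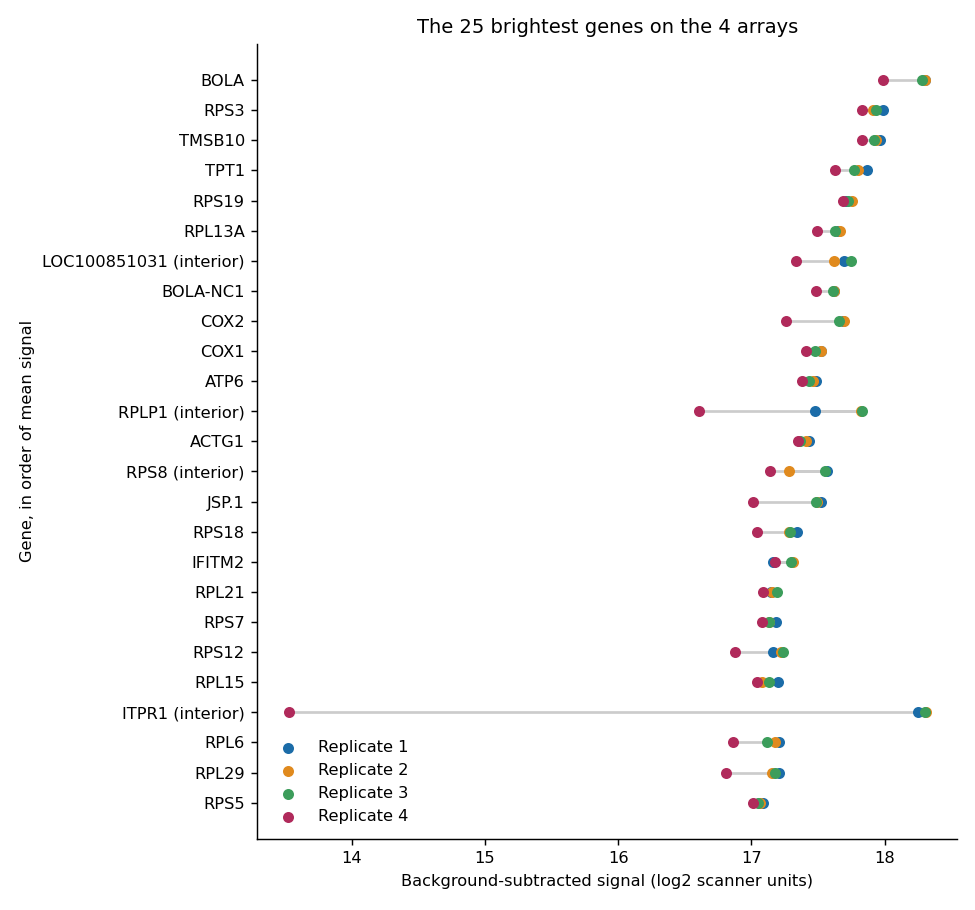
Background-subtracted log2 signal of the 25 brightest genes on each of the 4 arrays, in order of the mean. For most genes the 4 points lie within 0.5 of each other; ITPR1, read from an interior probe, falls from about 18.3 on replicates 1 to 3 to 13.53 on replicate 4.

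Genes encoded by the mitochondrial genome followed closely. COX2 and COX1, the catalytic subunits of cytochrome c oxidase, stood at ranks 9 and 10, and ATP6, the proton channel subunit of ATP synthase, at rank 11. Their probes are shown in full because they are the brightest reading of respiration, together with a further COX1 probe that lay in the interior. Sequences are 5′ to 3′ in lower case.
COX2: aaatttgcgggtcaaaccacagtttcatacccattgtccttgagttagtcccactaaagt
COX1: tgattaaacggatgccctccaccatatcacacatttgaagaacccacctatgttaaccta
ATP6: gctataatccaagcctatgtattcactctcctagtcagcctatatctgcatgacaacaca
COX1, interior: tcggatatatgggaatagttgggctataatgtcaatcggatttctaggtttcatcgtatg
The rim probe of COX1 read 188346, 187834, 182159 and 174118 scanner units on replicates 1 to 4. The interior probe of the same symbol read -0.329, -2.96, 1.45 and -3.67, at the level of an empty spot. These COX1 probes differ in sequence as well as in place, and what each binds was not tested. COX2 read 17.68, 17.70, 17.66 and 17.26, and ATP6 17.49, 17.46, 17.43 and 17.38 on the log2 scale. Some of the brightest probes carried no symbol and could not be ranked as genes: 13 of the 100 brightest probes were unnamed. A pair of them, described in the authors' table as mitochondrial ribosomal RNA, read 17.98 and 17.80.

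Some members of the top were read in the interior. ITPR1, an intracellular calcium channel, stood at rank 22 through an interior probe that read 18.25, 18.31, 18.30 and 13.53. Its 4 kept probes had means of 17.10, 12.93, 10.80 and 8.81. The first 30 bases of the brightest, the next and the dimmest are shown because their signals for the same symbol differ so widely.
ITPR1, brightest: tttagctgagtgtcccgcggggcccgaagc
ITPR1, second: cagctccaatagcgtatattaaagttgctg
ITPR1, dimmest: gaagctggtgtgttaatagtatgtaacaaa
The second probe shares an unbroken run of 52 bases with a further ITPR1 probe in the interior that was called on 0 of 4 arrays. The dimmest lay on the rim at 472, 446, 437 and 440 scanner units, and with rim probes alone ITPR1 took its place from a probe at 10.80. What the brightest probe binds was not tested. LOC100851031, an uncharacterised locus at rank 7, also rested on an interior probe, at 17.69, 17.62, 17.75 and 17.33. Its sequence is shown because 52 of its 60 bases are G or C (86.7%), with the first 30 printed.
LOC100851031: tgcgacgcccccggaccctcgcccgcgcca
On the rim, probes of at least 65% G and C were kept in 63 of 82 cases (76.8%), against 57.4% of probes of 35 to under 45% and 53.2% of those of 45 to under 55%.

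The bottom of the ranking was set by the software's call, since a gene had to be called to be ranked at all. The 15 dimmest ranked genes had means from 5.56 to 5.72, just above the lowest called signals, and 13 of them were read on the rim. CEACAM19, a cell adhesion molecule of the CEA family, was last at 5.56, 5.81, 5.32 and 5.55. Next to it stood METTL14, a subunit of the enzyme complex that methylates adenosine in messenger RNA (5.63 ± 0.0772), and ZBTB7B, a transcription factor that directs T cells to the helper lineage (5.63 ± 0.111). HDLBP, an RNA-binding protein, CBFA2T3, a transcriptional corepressor, PKN2, a protein kinase, and OAS2, an interferon-induced synthetase, also lay among the last 15. So did TNFSF15, a cytokine of the TNF family, and SYN3, a synapsin. Their ranges overlap: over these 15 genes SDs ran from 0.0370 to 0.201, and the means span 0.16. The order among them is not resolved.

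Across 32 lists of cell types, cellular programmes and tissues, members filled 198 of the 648 genes of the brightest 10% (30.6%) and 19 of the 648 genes of the dimmest 10% (2.93%). On the rim the counts were 158 of 513 (30.8%) and 17 of 513 (3.31%). The lists were made of well-studied and often abundant genes, and neither share was tested. Of all ranked genes, 534 of 6484 (8.24%) were in a list, and on the rim 419 of 5129 (8.17%). The counts of ranked members below stand beside 38.2% for all genes, and beside 60.2% for genes with a rim probe. Each end holds 9.99% of the ranked genes by definition.

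Cytosolic ribosomal proteins, the protein part of the ribosome, formed the largest block. Of 79 members on the array 69 were ranked (87.3%, against 38.2% of all genes), 66 of them in the brightest 10% and 0 in the dimmest 10%, with a median percentile of 99.2. They made up 31 of the 50 and 46 of the 100 brightest genes. On the rim 48 of 49 were ranked (against 60.2%), 47 of them in the brightest 10%. Members ranked below the brightest 10%, RPS9 (69.2), RPLP2 (29.7) and RPS27 (26.02), were each read in the interior, with SDs of 1.79, 2.03 and 1.14. The 10 members without a rank had no rim probe.

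Translation factors, which load, start and extend protein synthesis, had 29 of 39 members ranked and a median percentile of 92.6 (93.4 on the rim). EEF1A1, which brings transfer RNA to the ribosome, stood at rank 43 (16.56 ± 0.256), and EEF1G of the same elongation complex at rank 103 (15.22 ± 0.0529). EIF3K, a subunit of an initiation complex, was the lowest at percentile 6.34. Mitochondrial ribosomal proteins, which serve the separate ribosome of mitochondria, had 48 of 76 ranked at a median percentile of 53.1, and on the rim 40 of 41 at 55.1. They ranged from MRPL41 (96.0) to MRPS9 (2.58), with 2 members in the brightest 10%, where cytosolic ribosomal proteins had 66.

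Oxidative phosphorylation, the respiratory chain and ATP synthase, had 60 of 87 members ranked, 27 of them in the brightest 10% and 0 in the dimmest 10%, with a median percentile of 88.2. On the rim 49 of 51 were ranked at a median of 90.9. After the mitochondrially encoded genes above came COX3 (15.95 ± 0.413) and the nuclear ATP5F1B, a catalytic subunit of ATP synthase (15.50 ± 0.146). SDHD, a membrane anchor of succinate dehydrogenase, was the lowest at percentile 23.6. Glycolysis had 12 of 18 ranked at 85.3, from GAPDH (14.29 ± 1.04, interior) down to PFKM (6.36 ± 0.225), the muscle form of phosphofructokinase. The rim median of glycolysis was 68.7 over 9 genes.

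The actin cytoskeleton had 29 of 45 members ranked at a median percentile of 80.8, and all 22 with a rim probe were ranked on the rim, at 84.4. MYL6, a myosin light chain, stood at rank 57 (16.22 ± 0.0535). ACTB, beta actin, had 4 probes, all in the interior, and entered through a single one at 12.03, 11.65, 10.32 and 9.29. Its percentile of 75.6 rests on that spot. Proteasome subunits had 22 of 31 ranked (71.0%, against 38.2% of all genes) at 78.9 (82.7 on the rim). Splicing factors had 31 of 39 ranked (79.5%) at 81.5 (80.1). Heat shock proteins had 11 of 20 ranked (55%) at 86.6 (86.7), led by the constitutive chaperone HSPA8 (15.18 ± 0.0847). HSPA1A, the inducible form, stood at percentile 46.7. Iron handling had 7 of 9 ranked at 90.6 (86.7 on the rim), with ferritin light chain FTL at 14.46 ± 0.0499.

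MHC class I and peptide loading had 13 of 17 members ranked, 7 in the brightest 10%, at a median percentile of 94.7 (96.3 on the rim). B2M, the light chain of every class I molecule, stood at rank 42 (16.59 ± 0.142), and CALR, a chaperone of class I folding, at rank 226 (13.85 ± 0.0938). ERAP2, a trimming peptidase, was the lowest at percentile 21.2. MHC class II, which professional antigen-presenting cells use to show peptides to helper T cells, had 16 of 20 ranked, 11 in the brightest 10%, at 96.1 (95.6 on the rim). All 15 class II members with a rim probe were ranked on the rim, 10 of them in the brightest 10%. CD74, the invariant chain, read 14.60, 14.55, 14.49 and 14.36, and CTSS, the protease that removes it, read 13.67, 13.65, 13.53 and 13.47. BOLA-DYB, a class II chain found in ruminants, was the lowest at percentile 8.88.

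**Figure D4:**
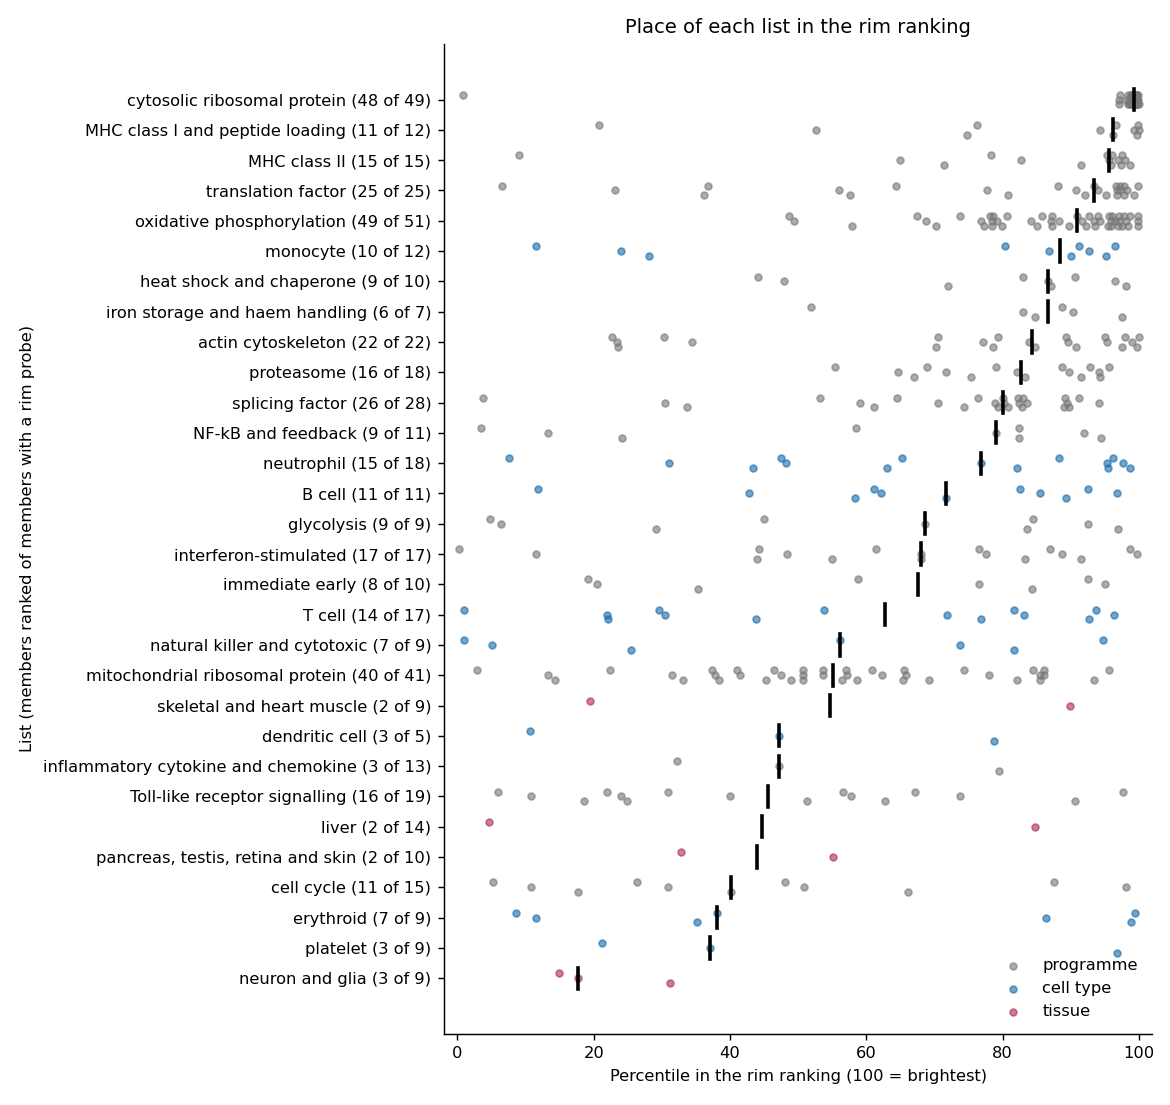
Percentile in the rim ranking of each ranked member (points) of 30 lists, coloured by kind of list, with the list's median as a black bar; the numbers beside each name are members ranked of members with a rim probe. Cytosolic ribosomal proteins crowd at the right edge, and cell type lists spread over nearly the whole ranking.

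Markers of blood cell types were spread over the whole ranking. Over all 9 cell type lists 87 of 188 markers were ranked (46.3%, against 38.2% of all genes), and on the rim 71 of 93 (76.3%, against 60.2%), 20 of them in the brightest 10%. Lists for other tissues had 19 of 78 ranked (24.4%), and on the rim 9 of 47 (19.1%), 0 of them in the brightest 10%. The blood lists differed: erythroid (32%), dendritic cell (27.3%) and eosinophil and basophil genes (20%) were ranked less often than all genes, and on the rim platelet and eosinophil and basophil genes (33.3% each) were. Rim shares for erythroid and dendritic cell genes were 77.8% and 60%, against 60.2%.

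Neutrophil genes had 19 of 39 ranked (48.7%, against 38.2%) at a median percentile of 67.4, and 15 of 18 on the rim at 76.9. S100A12, a calcium-binding alarmin of granulocytes, led at 15.89, 15.81, 15.79 and 15.64, rank 78. It was followed by ITGB2, the common chain of leukocyte integrins (14.61 ± 0.172), TREM1, an activating receptor (13.81 ± 0.112), and CSF3R, the receptor for granulocyte colony-stimulating factor (13.50 ± 0.142). The chemokine receptor CXCR2 stood at 11.49 ± 0.0417, and IL1R2, the decoy receptor for interleukin-1, was the lowest at 6.45 ± 0.114. CATHL2 and CATHL4, of the cathelicidin family of granule proteins, had 2 rim probes each and were called on 0 of 4 arrays. MPO, myeloperoxidase, had no rim probe.

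S100A8 and S100A9, which form calprotectin, the main cytosolic protein of neutrophils, were not ranked. Their probes lay in the interior. S100A8 read 11816, 9384 and 11028 scanner units on replicates 1 to 3 and -3.97 on replicate 4, and S100A9 read 5141, 4619, 5583 and 7.77. The S100A9 probe is shown because its loss on a single array removes the gene.
S100A9: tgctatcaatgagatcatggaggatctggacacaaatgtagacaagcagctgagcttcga
Without replicate 4, S100A8 stood at percentile 95.5 and S100A9 at 90.9 of 7738 ranked genes.

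Monocyte genes had 10 of 20 ranked, 5 in the brightest 10%, at a median percentile of 89.3 (88.5 on the rim), the highest among cell type lists of more than 2 ranked genes. SIRPA, the receptor for the CD47 signal against engulfment, stood at 13.99 ± 0.0807, LYZ, lysozyme, at 13.43 ± 0.167, and CSF1R, the receptor for macrophage colony-stimulating factor, at 12.81 ± 0.0392. CD14, the co-receptor for lipopolysaccharide, stood at 7.57 ± 0.0955 and percentile 25.1. Neutrophils also express several of these genes in mammals, and the lists do not separate the 2 cell types.

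T cell genes had 18 of 29 ranked at 64.96 (62.8 on the rim), from CD247, the zeta chain of the T cell receptor complex (13.89 ± 0.167), and CD3E (13.01 ± 0.122) to CD28, a costimulatory receptor (5.81 ± 0.176). LCK, the kinase that starts receptor signalling, read 12.79, 12.83, 12.82 and 12.78, the smallest SD among the T cell genes at 0.0210. CD4 read 13.78, 13.53, 13.34 and 12.56 in the interior, while a rim probe of it was called on 3 of 4 arrays and read between 45.6 and 57.0 scanner units. CD8A stood at 11.05 ± 0.248. B cell genes had 12 of 20 ranked at 76.6, and 11 of 11 on the rim at 71.8. CD79A, a signalling chain of the B cell receptor, stood at 14.09 ± 0.134, MS4A1, the antigen CD20, at 11.54 ± 0.106, and PAX5, the factor that fixes B cell identity, at 8.80 ± 0.292.

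Natural killer and cytotoxic genes had 8 of 17 ranked (47.1%, against 38.2%) at 42.6, and 7 of 9 on the rim at 56.1. GNLY, a pore-forming granule protein, stood at 13.23 ± 0.0796, NKG7 at 11.46 ± 0.110, and the granzymes GZMB and GZMA at 7.66 ± 0.163 and 6.27 ± 0.187. KLRD1, a receptor chain of killer cells, was the lowest at 5.81 ± 0.224. Eosinophil and basophil genes had 2 of 10 ranked (20%, against 38.2%), and 1 of 3 on the rim, and both ranked genes stood near the top. ALOX15, a lipoxygenase abundant in eosinophils, read 13.82, 13.82, 13.81 and 13.65 on the rim. IL1RL1, the receptor for interleukin-33, read 16.38, 16.34, 16.34 and 14.42 in the interior at rank 74, while a second kept probe of it averaged 11.41. Dendritic cell genes had 3 of 11 ranked (27.3%, against 38.2%) at 49.6, 0 in the brightest 10%, and 3 of 5 on the rim at 47.2.

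Red cell and platelet genes included a few very bright members, and many were dim or unranked. Only 9 of the 25 erythroid and 9 of the 17 platelet genes had a rim probe. HBG and HBB, globin chains of haemoglobin, stood at ranks 33 and 60, with HBB at 16.21, 16.21, 16.17 and 16.13. Globin genes are close copies of each other, and their probes may share transcripts. HBA was called on replicates 1 to 3 at 36358, 23465 and 22697 scanner units and read 8.55 on replicate 4. AHSP, which holds free alpha globin, read 9.07, 8.73, 8.29 and 7.88, and KLF1, the erythroid transcription factor, 6.74 ± 0.128. In all, 8 of 25 erythroid genes were ranked (32%, against 38.2%) at a median of 47.6. On the rim 7 of 9 were ranked (77.8%, against 60.2%) at 38.1. Of 17 platelet genes 7 were ranked (41.2%, against 38.2%) at 23.9, and 3 of 9 on the rim (33.3%, against 60.2%) at 37.1. F13A1, a clotting factor subunit that monocytes also make, stood at 14.11 ± 0.0851. PPBP, a platelet chemokine, stood at 8.62 ± 0.236 in the interior, and PF4 was called on 0 of 4 arrays by its interior probe.

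Lists of the inflammatory response ranged from medians of 40.7 for cytokines to 78.6 for NF-kB genes. Toll-like receptor signalling had 19 of 28 ranked at a median of 59.1 and a rim median of 45.6. IRF5, a transcription factor downstream of these receptors, stood at 14.58 ± 0.0726, the receptor TLR4 for lipopolysaccharide at 7.41 ± 0.286 and TLR1 at 6.33 ± 0.146. NF-kB genes had 11 of 16 ranked at 78.6 (79.1 on the rim), from the inhibitor NFKBIA (13.18 ± 0.220) to BCL3 (6.11 ± 0.335). Cytokines and chemokines had 7 of 26 ranked (26.9%, against 38.2%), 0 in the brightest 10%, and on the rim 3 of 13 (23.1%, against 60.2%). IL1B, interleukin-1 beta, read 11.50, 11.41, 11.39 and 10.83 and was the highest, and CXCL10 read 8.08 ± 0.233. IL10 stood at 8.85 ± 0.915 in the interior. Immediate early genes had 12 of 26 ranked (46.2%, against 38.2%) at 59.3 (67.6 on the rim). They were led by KLF6 (13.34 ± 0.135), the MAP kinase phosphatase DUSP1 (12.79 ± 0.101) and FOS (11.71 ± 0.152). Interferon-stimulated genes had 21 of 35 ranked at 70.1 (68.1 on the rim) and had members at both ends, with IFITM2 and IFITM3 (15.83 ± 0.0708) among the 100 brightest and OAS2 among the 15 dimmest. Cell cycle genes had 12 of 27 ranked (44.4%, against 38.2%) at 46.4 (40.1 on the rim). Among them CCND3, a cyclin of lymphocytes, stood at 15.12 ± 0.0938 and the mitotic cyclin CCNA2 at 6.29 ± 0.102.

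Genes of other tissues were ranked less often than all genes, and those that were ranked were not all dim. None of the 5 milk protein genes with a rim probe was ranked by it; CSN2 and PAEP were ranked through the interior, with CSN2, beta casein, at 10.17, 9.69, 9.90 and 7.97 while its rim probe was called on 0 of 4 arrays. Liver genes had 2 of 14 ranked on the rim, HPX, hemopexin, at 11.74 ± 0.190 and AMBP at 6.24 ± 0.238, with a median percentile of 44.7 there and 75.6 in the full ranking. Skeletal and heart muscle genes had 2 of 9 at 54.7, of which DES, desmin, stood at 12.35 ± 0.101 through 1 probe of 4, and its other rim probe was called on 0 arrays. Neuron and glia genes had 3 of 9, at a median percentile of 17.7, and pancreas, testis, retina and skin genes 2 of 10 at 43.95. DES lay in the brightest 10% of the full ranking.

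Ranks repeated closely on the rim and loosely in the interior. The rim was defined from calls on these same 4 arrays, and places that changed between arrays fell in the interior. Part of every rim and interior difference in repeatability below follows from that choice, and how much was not tested. Across the 6484 genes, the Spearman correlation between 2 arrays was 0.991 for replicates 2 and 3 and 0.900 for replicates 1 and 4, with a median of 0.945 over the 6 pairs. These are correlations across genes, which share a pool and a slide and are not independent replicates. Over the 5129 rim genes it lay between 0.983 and 0.997, with a median of 0.99004. Over the 2070 genes with a kept interior probe it lay between 0.649 and 0.969, with a median of 0.792. The 3 pairs that include replicate 4 gave 0.660, 0.667 and 0.649 in the interior, and the other 3 gave 0.918 to 0.969.

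The top repeated better than the bottom. Of the 648 genes in the brightest 10%, 536 places (82.7%) were held by genes in the brightest 10% of every array, and at the dim end 328 (50.6%). On the rim the shares were 468 of 513 (91.2%) and 353 of 513 (68.8%), and in the interior 101 of 207 (48.8%) and 32 of 207 (15.5%). Without replicate 4, when only 3 arrays have to share a gene, the dim end held 516 of 774 (66.7%). Of the 100 brightest genes of each array, 83 were shared by all 4 arrays and 94 by replicates 1 to 3. The median gene moved over 439 ranks between its highest and lowest array, or 6.77% of the ranking, and over 178 ranks (3.47%) on the rim. Within the brightest 10%, the median range was 80 ranks, against 614.5 ranks in the seventh 10% and 371 in the dimmest 10%. The median SD rose from 0.131 in the brightest 10% to 0.292 in the eighth 10%.

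**Figure D5:**
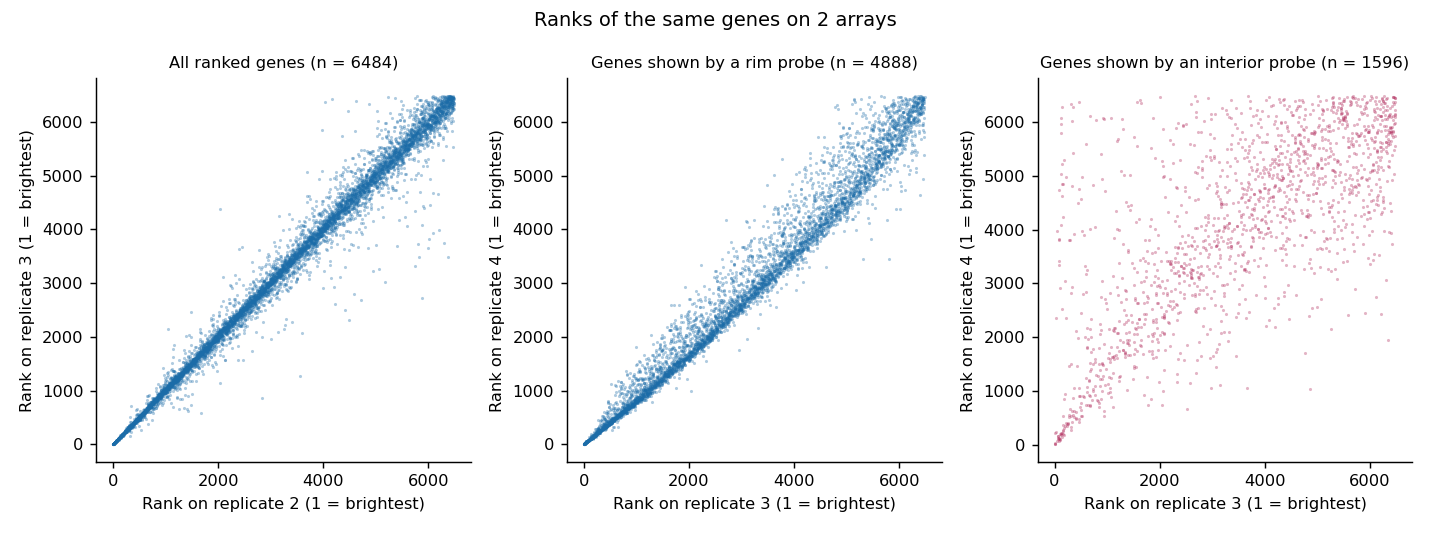
Rank of each gene on 2 arrays (1 = brightest on both axes). Left, replicates 2 and 3 for all 6484 ranked genes; middle and right, replicates 3 and 4 for the 4888 genes read by a rim probe and the 1596 read by an interior probe. Rim genes lie along a narrow band, and interior genes scatter, many of them dimmer on replicate 4.

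The genes of the brightest 10% with the smallest range of ranks were BOLA, RPS3, TPT1 and RPS18, each within 1 rank of itself on the 4 arrays, and TMSB10 and RPL4, each within 2. A small range of ranks is not a small spread of signal: the SDs of BOLA (0.155) and RPS18 (0.136) were above the median of 0.131 for the brightest 10%. The 10 genes with the widest range were all read in the interior, the class that takes in places dark on a single array. GOSR1, a SNARE protein of the Golgi, read 16.94, 7.84, 8.23 and 5.59, which is rank 32 on replicate 1 and a range of 6393 ranks. RPL19 read 14.97, 14.58, 14.78 and 5.79, FAU, a ribosomal protein fused to a ubiquitin-like part, 15.11, 15.04, 15.25 and 6.26, and GTF2H5, a subunit of a general transcription factor, 15.20, 15.03, 15.17 and 6.01. EIF3CL, an initiation factor subunit, was low on replicate 1 instead, at 5.90, 12.74, 12.92 and 9.93. Altogether 110 of the 6484 genes moved over more than 50% of the ranking. Of the 110, 105 were read in the interior, as were 1596 of all ranked genes. Replicate 4 was the dimmest array for 86, and the share over all ranked genes was not counted. That array had the lowest median log2 signal over the ranked genes, 8.65 against 9.18 to 9.34.

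Replicate 4 alone kept 1254 genes out of the ranking, 12% of the 10472 genes not ranked. Probes called on the other 3 arrays and missed on replicate 4 numbered 3182, of which 2838 lay in the interior. The interior held 29868 of all 43653 probes and by definition takes in areas dark on replicate 4 alone. Leaving out replicate 1, 2 or 3 would have added 47, 89 or 22 genes. A zone that was bright on replicates 1 to 3 and dark on replicate 4, lying mostly across the middle rows, held 936 of these 3182 probes. The zone held 4211 of all 43653 probes. Without replicate 4, 24 of 39 neutrophil and 73 of 79 cytosolic ribosomal protein genes were ranked, beside 7738 of all 16956 genes. What set the bright and dark areas was not tested.

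Different probes for the same gene often gave different signals. Of 1731 genes with several kept probes, the brightest and dimmest differed by a median of 1.97 on the log2 scale (quartiles 0.94 and 3.35), and by more than 1 in 1274 genes (73.6%). With rim probes alone, 1087 genes had several and the median was 1.90. That distance is close to the one between the median signals of the fifth 10% of genes (9.41) and the eighth (7.57). The largest differences on the rim were in RPL37 (16.88 and 6.87) and RPS29 (16.99 and 7.00), both ribosomal proteins, and IL32, a lymphocyte cytokine, read 14.65 with 1 rim probe and 6.11 with another. Over all kept probes the widest was RPL31, at 10.62. Along the rim ranking, the median share of G and C in a probe was 45% in the brightest 10%, 43.3% in the next 5 classes and 45% in the dimmest 10%, while probes of at least 50% G and C made up 23.8% of the brightest and 32.2% of the dimmest 10%.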

How the data were processed

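Per the file headers, the authors' scanner files were made with Agilent Feature Extraction 10.10.1.1 and hold, per spot, the intensity on a linear scale; the background-subtracted intensity was used, with no scaling between arrays. The 1417 control spots were left out of the ranking, 43803 spots of 43653 probes remained, and spots of a probe were averaged after values under 1 were set to 1 and log2 was taken. The deposited table of log2 group averages served for symbols, descriptions and probe sequences; its values were not used. Symbols were updated through a bovine RefSeq table of another assembly than the array design, so no positions are given: 31422 probes had a current symbol, 1585 an older one, 1868 kept the table's symbol and 8778 had none.

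The named genes are the 25 brightest, the 15 dimmest, up to 5 leading members, the lowest and unranked members of each list, the 10 widest rank ranges, the 10 narrowest within the brightest 10%, and the 10 largest gaps between probes; CALR, CTSS, CXCR2, CD8A, CD14, PAX5, GZMA, KLF1, TLR4, RPS9, RPLP2, IL32, RPL36AL, IL11RA, CAMK1G, IGLL1, AGTR1, AVP and FGF2 fall outside this rule and were chosen after their values were seen. The members and the 32 lists were chosen with earlier results of these data known. A few genes are not reported here. No group was compared, and Dixon's ratio on single arrays was the only test applied. Python 3.11.15 with pandas 2.3.3, scipy 1.17.1 and matplotlib 3.10.9 was used, and the ranking and rim classes were checked on simulated data. Alternatives varied the signal column, scaling, call, probe choice, naming, array set and the size of the ends; rim rankings were added after the data were seen.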

Additional observations from a re-analysis of the deposited data

Results flagged for a closer look

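For each of 96 values read on the 4 arrays (59 named genes, 32 list medians and 5 array measures), the gap between the most distant array and its nearest neighbour was divided by the range of the 4. The ratio passed the 95% limit of Dixon's test in 23 cases. Chance gives about 1 in 20 for values not chosen for a spread between arrays, and this rate does not apply to the 6 genes of widest rank range among the 23. The 96 values share the same 4 arrays and are not independent, so the 23 cases are not separate events. Gene signals were not scaled, and replicate 4 had the lowest median log2 signal over the ranked genes (8.65, against 9.18 to 9.34). Replicate 4 was the lowest array in 20 of the 23 and the highest in 2, and replicate 2 was the highest in the remaining case.

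Among the brightest genes the ratio was 0.908 for BOLA, 0.924 for BOLA-NC1, 0.911 for COX2, 0.923 for JSP.1, 0.857 for RPL29 and 0.898 for RPL31, and replicate 4 was lower by less than 1 on the log2 scale in each. For ITPR1 (0.988) it fell from 18.25 or more to 13.53. Among the genes of widest rank range it was 0.958 for RPL19, 0.969 for TRD@, 0.981 for GTF2H5, 0.958 for PHGDH, 0.945 for PRPF8 and 0.976 for FAU, where replicate 4 read between 5.73 and 6.26 and the other arrays between 12.99 and 15.25. At the dim end SNX24 (0.937) was lowest on replicate 4, and PKN2 (0.948) was highest on replicate 2, at 5.78 against 5.63 to 5.64.

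Among list medians in the ranking, replicate 4 was lowest for B cell (0.924; percentile 72.4 against 77.2 to 77.6), translation factor (0.952; 90.8), proteasome (0.864; 77.4), glycolysis (0.919; 80.6), heat shock (0.932; 81.2) and NF-kB genes (0.909; 64.7 against 79.5 to 81.0). It was highest for natural killer (0.940; 48.5 against 40.3 to 40.8) and MHC class I genes (0.875; 94.8). These medians mix rim and interior probes. With rim probes alone, replicate 4 was highest for B cell (72.4 against 71.4 to 71.5), translation factor (93.9) and proteasome genes (83.5). It was also highest there for glycolysis (70.1 against 68.0 to 68.4), heat shock (87.0), natural killer (59.9) and MHC class I genes (96.4). For NF-kB genes it was lowest there, at 78.3 against 79.1 to 79.2. The part of place in these medians was not tested.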

How the results depend on the processing

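The number of genes ranked lay between 4513 (rim from 50% of neighbours) and 9478 (significant over background in place of the call), within 1.5 times the main count of 6484. Cytosolic ribosomal proteins in the brightest 10% numbered 44 to 69 over all alternatives, and ranked neutrophil genes 14 to 24. The median Spearman correlation moved to 0.879 with calls on at least 3 of 4 arrays, where the dim end kept 58 genes on every array, and to 0.99004 and 0.992 with rim probes from 40% and 50% of neighbours; the cause was not tested. With ends of 5%, 268 genes held the bright end and 114 the dim end on every array and 17 oxidative phosphorylation genes lay in the bright end; with ends of 25% these were 1365, 1175 and 48, as follows from the size of the ends. Leaving out 1 array gave 6506 to 7738 genes ranked, correlations of 0.908 to 0.971, 543 to 718 genes at the bright end, 340 to 516 at the dim end, 62 to 69 ribosomal protein, 27 to 31 oxidative phosphorylation and 19 to 24 neutrophil genes, each highest without replicate 4. List medians moved by more than the SD between arrays in 210 of 541 cases, and in none with the processed signal or quantile normalization. Most came with the dimmest or mean probe of a gene, another call, rim probes or without replicate 4. Percentiles of single genes were classed as moved in 820 of 3123 cases. These were 158 of 192 with the dimmest probe, 133 of 192 with the mean probe and 0 of 192 with the processed signal. With spots significant over background they were 162 of 192. No paired analysis was possible because no groups were compared. The rank of a gene read in the interior alone calls for caution. Identical probes were mostly dimmer there, and pairs of arrays correlated at 0.649 to 0.969, against 0.983 to 0.997 on the rim. Single interior genes could still repeat closely, such as LOC100851031 with a range of 4 ranks.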
